A study of Mus musculus with 48 samples.

Results

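Potassium channel genes were described in the cerebral cortex of 48 mice, as the 88 genes whose symbol starts with Kcn, that both expression tables list and that lay above the lowest value of the column in at least 24 of the 48 mice. *Kcnj8* and *Kcnj13* were left out by name. Of 98 such symbols in either table, 94 were in both, and *Kcnj1*, *Kcnk15*, *Kcnmb3* and *Kcnv2* had too few columns above the minimum. The tables share 16952 symbols. RNA was sequenced from 12 groups of 4 mice, by genotype, sex and exposure. B6 mice are the C57BL/6J wild type, 4 months old by the labels, exposed for 8 weeks. *APOE*-TR mice carry human *APOE*3 or *APOE*4 in place of the mouse gene by targeted replacement, were 6 months old by the labels and were exposed for 15 weeks. Filtered air was the control in both exposures, and the other mice breathed nPM, the nano-sized part of particulate matter collected from city air, for 5 h per day on 3 days per week. B6 and *APOE*-TR mice also differ in age, in the exposure they went through and in the table that holds them, so no difference between them was tested.

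Potassium channels set the resting potential of neurons and glia and end the action potential. Voltage-gated (Kv) pore subunits open on depolarization, and Kv auxiliary and electrically silent modulatory subunits change their gating. KCNQ channels carry the M current, EAG, ERG and ELK channels shape excitability, and calcium- and sodium-activated channels follow the ions of the spike. Inward rectifiers hold the resting potential, couple to G proteins or to ATP and, in astrocytes, take up extracellular potassium. Two-pore-domain channels carry the background leak.

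Depth, worked out from the values, ran from 17.8 to 22.3 M reads in *APOE*-TR females and from 22.4 to 31.3 M reads in *APOE*-TR males, and was estimated at 2.05 to 24.4 M reads in B6 mice. All 7 neuron and all 7 astrocyte markers lay above the minimum in every mouse, as did all 7 markers of striatum, which lies beneath the cortex. The APOE3 females under filtered air stood apart. The slope of log2 level on log2 exon length was -0.523 to -0.106 in their libraries and -0.211 to +0.153 in the other 28 *APOE*-TR mice. In the APOE3 females under filtered air the top transcript, mitochondrial *COX1*, held 3.96% to 6.68% of the summed CPM. The top transcript held 2.43% to 4.78% in APOE3 females with nPM, which overlaps. In B6 females under filtered air it held 7.14% to 8.56%. Animals 61 and F6 of the APOE3 females under filtered air had the lowest slopes of all 32. Most counts and named values that rest on this group are given also without these animals or without all 4. The slope is worked out from the same expression values, so as a covariate it can also take up part of a difference between groups. As the tissue is bulk cortex, fewer cells of a type and less RNA per cell cannot be told apart.

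CPM are read counts relative to library size, scaled here between the mice of a table by TMM. Levels were compared between genes as CPM per kb of exon, in the 16 *APOE*-TR mice under filtered air. The highest median was that of *Kcnab2*, the Kv beta subunit, at 77.8 CPM per kb, followed by the Kv4 partner *Kcnip2* at 51.1 and the axonal Kv1 subunit *Kcna1* at 50.1. These neighbours overlapped in their ranges over mice, *Kcnip2* from 19.99 to 61.3 and *Kcna1* from 24.3 to 59.7 CPM per kb. Among inward rectifiers *Kcnj4* had 39.9, the astrocytic *Kcnj10* 38.4 and the G-protein-coupled *Kcnj9* and *Kcnj3* 31.2 and 24.3 CPM per kb. *Kcnk1* led the leak subunits at 34.3, above *Kcnk2* at 10.8 CPM per kb. The 4 Kv3 subunits of fast-spiking cells lay close together, from 14.3 for *Kcnc4* to 17.8 CPM per kb for *Kcnc1*. In 27 of 88 members the median was under 1 CPM per kb, with *Kcnj15* lowest at 0.0138. In the 8 B6 mice under filtered air *Kcnj10* had the highest median, 42.1 CPM per kb.

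**Figure D1:**
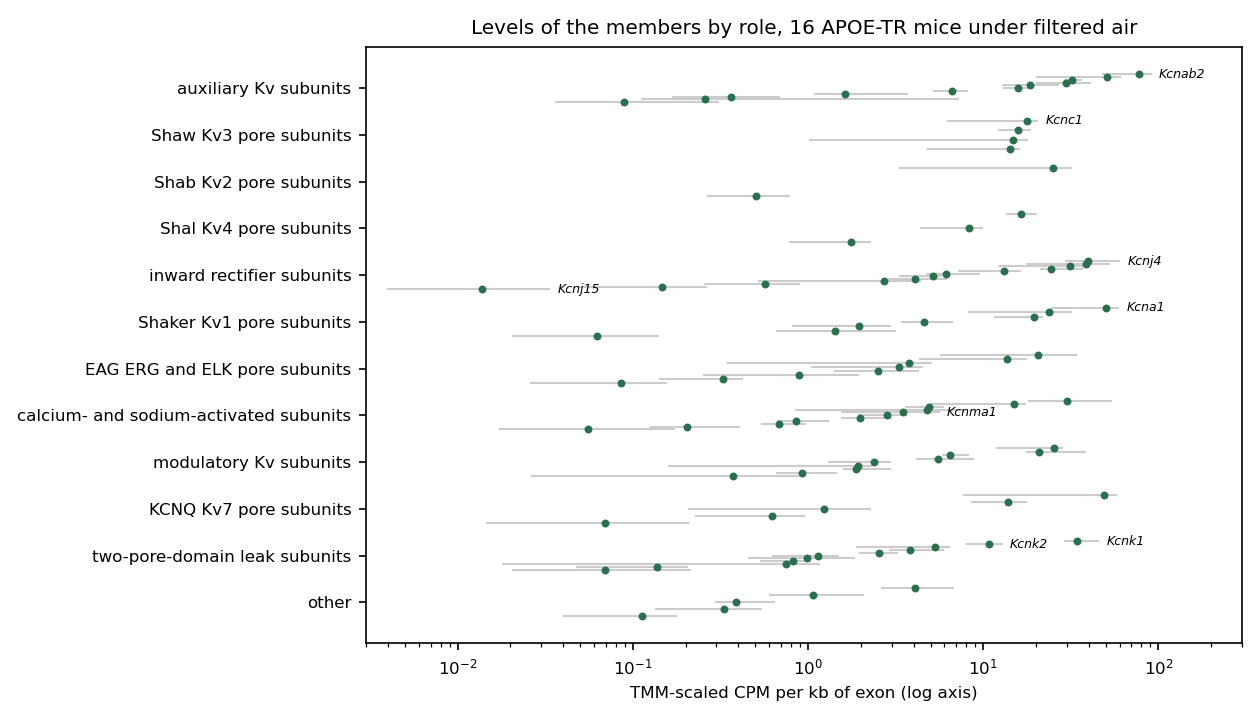
Level of each of the 88 members in the 16 *APOE*-TR mice under filtered air, on a log axis of CPM per kb of exon, with members grouped by role. Points are medians and grey lines span the lowest to highest mouse, and a few of the genes in the text are named, such as *Kcnab2* at 77.8.

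For the response to nPM, all 48 mice were fitted together with sex and genotype as covariates. A gene was tested where every mouse was above the minimum of its column, and is said to be called at an unadjusted p under 0.005, the threshold the study used. Of 61 members tested, 4 were called, all higher with nPM, beside 1.48% of the 11075 genes tested. None passed a 5% false discovery rate (FDR), and the smallest adjusted p of a member was 0.301 (limma). Without the 4 APOE3 females under filtered air, or without animals 61 and F6 alone, 1 member was called. Leaving out any 1 mouse left 0 to 4 called. The members leaned upward: 50 of 61 had a higher fitted level with nPM, beside 52% of all genes tested, with a median of +0.14 against +0.01 on the log2 scale. Without the 4 APOE3 females under filtered air 39 of 61 were higher and the median was +0.04. With the length slope of the libraries as a covariate 40 of 61 were higher, also with a median of +0.04. The slope was worked out within each table, and its part in the lean was not tested. Over all 88 members, with no filter on low values, 62 were higher. The share of all genes higher in these alternative fits is not given here.

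The 4 called members were *Kcnh3* and *Kcnh4*, which encode ELK channels of forebrain neurons, *Kcnip3*, the calcium-binding Kv4 partner also known as DREAM, and *Kcnj11*, the pore of the ATP-sensitive channel. *Kcnh4* differed by +0.57 ± 0.19 (SE) on the log2 scale (+48.5%, p = 0.00369 in limma, n = 48) and *Kcnh3* by +0.42 ± 0.13 (SE) (+33.4%, p = 0.00313 in limma, n = 48). In APOE3 females *Kcnh4* was 1.37, 1.97, 10.5 and 10.6 CPM under filtered air and 8.08, 14.3, 16.8 and 19.8 CPM with nPM. In B6 females it was 1.39, 2.703, 3.12 and 4.67 CPM under filtered air and 4.05, 7.71, 7.77 and 8.75 CPM with nPM. In both strata the ranges overlapped at 1 nPM mouse. In APOE3 males they lay over each other, 14.7 to 18.7 CPM under filtered air and 13.99 to 19.4 CPM with nPM. *Kcnip3* differed by +0.21 ± 0.072 (SE) (+15.8%, p = 0.00479 in limma, n = 48). By stratum it had log2 differences of +0.64 in B6 females and +0.38 in B6 males. In the *APOE*-TR strata it had +0.09 in APOE3 females, +0.06 in APOE3 males, +0.11 in APOE4 females and -0.008 in APOE4 males. It stayed called in 25 of 55 alternative fits. It was the 1 member still called without the APOE3 females under filtered air, at +0.25 on the log2 scale (adjusted p = 0.765 in limma), and also without animals 61 and F6. Without those 4 females *Kcnh4* differed by +0.38, *Kcnh3* by +0.34 and *Kcnj11* by +0.20 on the log2 scale. *Kcnj11* differed by +0.28 ± 0.10 (SE) (+21.7%, p = 0.00483 in limma, n = 48). In APOE3 females it was 22.5, 26.4, 33.97 and 34.2 CPM under filtered air and 35.8, 41.8, 51.97 and 57.3 CPM with nPM, with no overlap.

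By role, all 6 EAG, ERG and ELK subunits tested had a higher fitted level with nPM in the 48 mice, with a median of +0.25 on the log2 scale. So did all 4 KCNQ, all 4 Kv1, all 3 Kv4, all 6 calcium- and sodium-activated and all 6 modulatory subunits tested. The inward rectifiers were split 6 to 3, the leak subunits 4 to 4, the auxiliary Kv subunits 4 to 3 and the Kv3 subunits 3 to 1. Without the 4 APOE3 females under filtered air all 6 EAG, ERG and ELK and all 3 Kv4 subunits were higher, as were 5 of 6 calcium- and sodium-activated and 5 of 6 modulatory subunits. The KCNQ and Kv1 subunits were then split 2 to 2, and 6 of 9 inward rectifiers were lower. The Kv4 median in that fit was +0.03 on the log2 scale. With the length slope as a covariate 5 of 6 EAG, ERG and ELK, 1 of 3 Kv4 and 4 of 6 modulatory subunits were higher. So were 3 of 4 KCNQ, 2 of 4 Kv1 and all 6 calcium- and sodium-activated subunits. At an unadjusted p under 0.05, 12 of the 61 members were higher and none lower, beside 14.5% of all genes in either direction and 8.4% higher. Without those 4 females 8 were higher and none lower, beside 6.39% of all genes in either direction. With the length slope as a covariate 9 were higher and *Kcnj10* was lower (-0.12 log2), beside 12.8%. In the fit of all 48 mice, beyond the called 4 these were *Kcnab2*, *Kcnk9*, *Kcnc4*, *Kcnj4*, *Kcnj9*, *Kcnn1* and the modulatory subunits *Kcng1* and *Kcnf1*, with log2 differences from +0.18 in *Kcnab2* to +0.45 in *Kcnk9*. *Kcnk9* had +0.22 without animals 61 and F6 and +0.14 without all 4 females, where the others ran from +0.11 in *Kcnj9* to +0.37 in *Kcnj4* (log2 differences). *Kcnj10* had +0.00 and *Kcna1* +0.05 on the log2 scale, neither past p of 0.05.

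**Figure D2:**
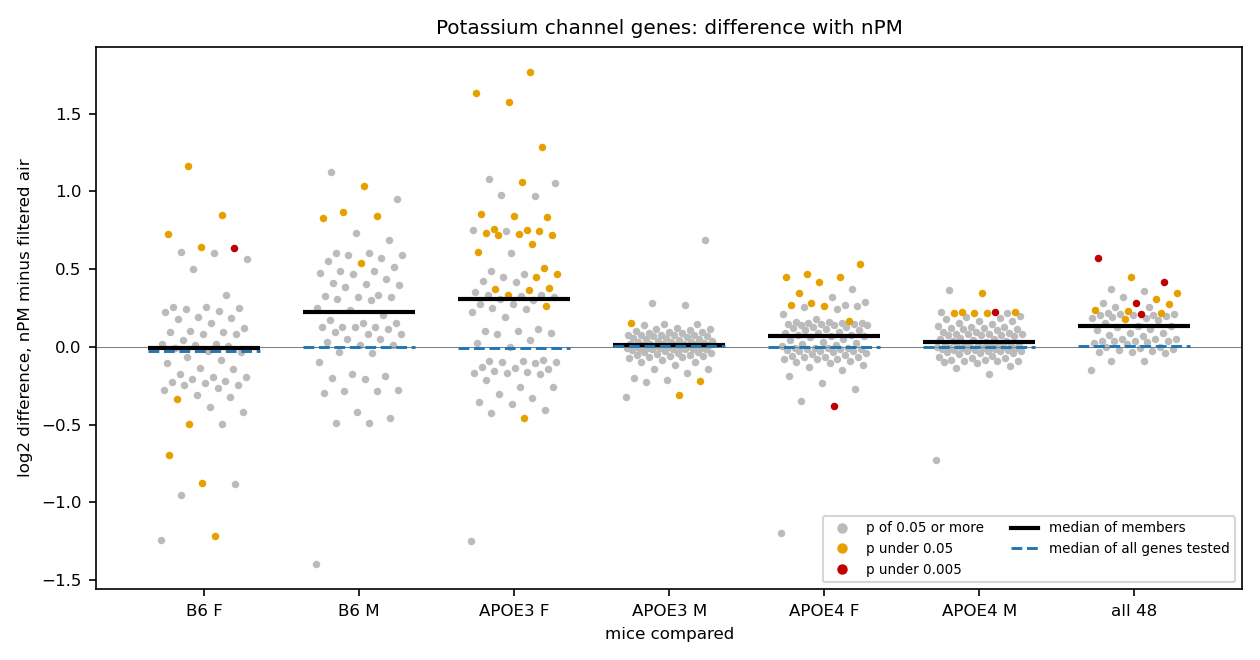
Log2 difference of each member tested, nPM minus filtered air, in each stratum and in all 48 mice, with colour for the unadjusted limma p and bars for the median of members (solid) and of all genes tested (dashed). The members' median is +0.31 in APOE3 females and +0.01 in APOE3 males.

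In B6 females 1 of 63 members tested was called, *Kcnip3*, beside 1.21% of all genes. It was 39.7, 45.2, 47.1 and 54.7 CPM under filtered air and 52.3, 70.7, 82.3 and 90.2 CPM with nPM, which overlapped in 1 mouse, a difference of +0.64 ± 0.19 (SE) on the log2 scale (adjusted p = 0.386 in limma). At an unadjusted p under 0.05, 5 members were higher and 5 lower, 10 of 63 beside 10.6% of all genes. *Kcnh4*, *Kcnh3*, *Kcns2* and *Kcnj4* were the other higher ones, and *Kcnt2*, *Kcnh7*, *Kcna2* and *Kcnj10* were among the lower. *Kcnj10* ranged from 229 to 325 CPM under filtered air and from 188 to 239.8 CPM with nPM (-0.34 ± 0.14 (SE) log2, adjusted p = 0.444 in limma). The summed CPM of the 7 astrocyte markers moved with it, 3167 to 3654 under filtered air and 2392 to 2993 with nPM, and its part was not tested.

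In B6 males none of 66 members was called in limma, beside 0.234% of all genes, and 5 were higher and none lower at an unadjusted p under 0.05, beside 4.31% in either direction and 2.23% higher. Among these were *Kcnv1*, *Kcnj9* and *Kcnab2*. *Kcnj9* was 22.2, 37.7, 51.5 and 97.9 CPM under filtered air and 64.6, 67.2, 92.7 and 119 CPM with nPM, with 1 filtered-air mouse, animal 3, inside the nPM range. Of the 66, 50 had a higher mean with nPM, with a median of +0.22 against 0.00 for all genes on the log2 scale. The shallowest library of all, animal 6 of the filtered-air group, held an estimated 2.05 M reads. Without animal 3 of that group 3 members were called. The neuron markers summed to 2454 to 4843 CPM under filtered air and 3744 to 4980 CPM with nPM in these males, and the part of either in the lean was not tested.

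In APOE3 females none of 83 members was called in limma, beside 0.665% of all genes, nor in edgeR on reads recovered from the values. At an unadjusted p under 0.05, 26 members differed, 25 of them higher with nPM, beside 21.1% of all genes in either direction and 11% higher. All 4 Kv3 subunits of fast-spiking cells were among them, as were 2 of 4 KCNQ, 2 of 3 Kv4 and 1 of 11 auxiliary Kv subunits. *Kcnc4* was 17.6, 23.4, 40.8 and 43.1 CPM under filtered air and 34.5, 55.2, 60.8 and 65.9 CPM with nPM (+0.84 ± 0.32 (SE) log2, adjusted p = 0.229 in limma). The leak channel *Kcnk9* was 0.2203, 1.005, 3.77 and 4.91 CPM and 3.496, 6.07, 8.09 and 9.82 CPM in the same order (+1.63 ± 0.62 (SE) log2, adjusted p = 0.229 in limma). In both genes the lower pair under filtered air was animals 61 and F6. *Kcnj16*, a glial subunit that pairs with *Kcnj10*, was the 1 lower member, at 28.2 to 37.6 CPM under filtered air and 19.7 to 29.1 CPM with nPM. The members' median was +0.31 on the log2 scale. Without animals 61 and F6 it was +0.12, and 14 members had p under 0.05, 8 higher and 6 lower, beside 4.96% of all genes. The lower ones then were *Kcna4*, *Kcna5*, *Kcnk2*, *Kcnab1*, *Kcnj5* and *Kcne1l*. *Kcnc4* had +0.32 and *Kcnk9* +0.53 on the log2 scale in that fit, neither past p of 0.05. With the length slope as a covariate the median was +0.02, and 13 had p under 0.05, 9 higher and 4 lower, beside 7.21%.

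In APOE3 males none of 85 members was called in limma, beside 0.154% of all genes, or in edgeR, and 3 had an unadjusted p under 0.05, beside 2.22%: *Kcnj5* and *Kcnk2* lower and *Kcnj12* higher. *Kcnk2* was 36.5, 45.4, 45.5 and 45.9 CPM under filtered air and 32.6, 35.3, 38.1 and 42.9 CPM with nPM (-0.22 ± 0.10 (SE) log2, adjusted p = 1 in limma). In APOE4 females 1 of 85 was called, the G-protein-coupled *Kcnj5*, beside 0.272% of all genes. It was low throughout, 0.638, 0.756, 0.808 and 0.899 CPM under filtered air and 0.394, 0.4699, 0.471 and 0.5803 CPM with nPM, with no overlap (-0.38 ± 0.11 (SE) log2, adjusted p = 0.754 in limma), and was not called in edgeR. At an unadjusted p under 0.05 there were 11 members, beside 5.59% of all genes. The other 10 were higher, beside 2.92% of all genes, and *Kcnk9*, a TASK leak channel, had the smallest p of these at +0.42 ± 0.13 (SE) log2. In APOE4 males 1 of 87 was called, *Kcnj11*, beside 0.178% of all genes. It was 37.1, 38.9, 40.6 and 44.96 CPM under filtered air and 45.5, 45.9, 47.6 and 50 CPM with nPM, with no overlap (+0.23 ± 0.062 (SE) log2, +17%, adjusted p = 0.954 in limma). At an unadjusted p under 0.05 there were 7 members, all higher, beside 4.15% of all genes in either direction and 2.57% higher. Of the 6 not called, 4 were EAG, ERG or ELK subunits (*Kcnh8*, *Kcnh6*, *Kcnh2* and *Kcnh3*). *Kcnh8* and *Kcnh6* were low, with medians of 0.085 and 0.328 CPM per kb in the *APOE*-TR mice under filtered air. Leaving out 1 mouse gave 0 to 3 called members in each of these APOE4 strata.

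The *APOE* alleles were compared in all 32 *APOE*-TR mice with sex and nPM as covariates. Of 83 members tested, 6 passed 5% FDR, beside 5.95% of the 15967 genes tested, so the share of members called was near the background. *Kcnk2*, *Kcnj4*, *Kcnj10*, *Kcnip2* and *Kcnk10* were higher in APOE4 and *Kcnj16* was lower. At an unadjusted p under 0.005 there were 7, with the small auxiliary subunit *Kcne1l* lower as well, beside 8.35% of all genes. At p under 0.05 there were 30, beside 38.4%. Without the 4 APOE3 females under filtered air 2 of 85 members passed 5% FDR, *Kcnk2* and *Kcnj10*, beside 2.2% of all genes. With the length slope as a covariate 1 did, *Kcnk2*, beside 2.85%, and likewise in the 16 males alone, beside 1.8%. A higher fitted level in APOE4 was found for 60 of 83 members, beside 50.2% of all genes, and for all 8 EAG, ERG and ELK, all 6 Kv1 and all 4 Kv3 subunits tested, while 6 of the 10 calcium- and sodium-activated subunits had a lower one. Without the 4 APOE3 females 5 of the 8, 6 of the 6 and 3 of the 4 were higher, in that order. In the 16 males alone 3, 1 and 2 of them were higher, and in the 16 females alone all of them were. Over all members 38 of 85 were higher in the males, beside 51.9% of all genes, with a median of -0.02 on the log2 scale, and 59 of 83 in the females, beside 49.9%, with a median of +0.21.

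*Kcnk2* encodes TREK-1, a leak channel opened by stretch and lipids. It differed by +0.28 ± 0.064 (SE) on the log2 scale (+21.5%, adjusted p = 0.00829 in limma). Under nPM the females had 29.1, 33.3, 33.9 and 39.1 CPM in APOE3 and 40.9, 47.3, 47.7 and 53.2 CPM in APOE4, with no overlap. The nPM males had 32.6, 35.3, 38.1 and 42.9 CPM in APOE3 and 42.8, 49.1, 49.2 and 50.6 CPM in APOE4, where 1 APOE3 mouse lay just above the lowest APOE4 mouse. Under filtered air the alleles overlapped. The females there had 33.6, 43.2, 43.5 and 47.9 CPM in APOE3 and 34.9, 42.9, 49.9 and 53.3 CPM in APOE4. The males there had 36.5, 45.4, 45.5 and 45.9 CPM and 43.5, 48.8, 50.5 and 54.1 CPM in that order. With exposure as a covariate, the difference was +0.27 on the log2 scale in the 16 males alone (adjusted p = 0.0344 in limma). In the 16 females alone it was +0.29 (adjusted p = 0.0578 in limma). By exposure, the females had +0.10 ± 0.16 (SE) under filtered air and +0.48 ± 0.11 (SE) under nPM. The nPM response, APOE4 minus APOE3, differed by +0.28 ± 0.12 (SE) (adjusted p = 0.443 in limma). Without the APOE3 females under filtered air the allele difference was +0.33 (adjusted p = 0.00321 in limma).

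*Kcnj4* encodes a strong inward rectifier of forebrain neurons. It was +0.23 ± 0.058 (SE) higher in APOE4 on the log2 scale (+17%, adjusted p = 0.0195 in limma). Under nPM the males had 69.7, 74.03, 80.1 and 87.7 CPM in APOE3 and 85.3, 97.2, 99.1 and 99.97 CPM in APOE4, which overlapped in 1 mouse of each. In females under nPM the group means were 109 ± 9.95 CPM in APOE3 and 124 ± 10.5 CPM in APOE4 (SD, n = 4). Without the APOE3 females under filtered air *Kcnj4* differed by +0.19 on the log2 scale (adjusted p = 0.0713 in limma).

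*Kcnj10* (Kir4.1) and *Kcnj16* (Kir5.1) form the potassium-buffering channels of astrocytes, and went in opposite directions. *Kcnj10* was +0.38 ± 0.10 (SE) higher in APOE4 on the log2 scale (+29.8%, adjusted p = 0.0322 in limma). In females under filtered air it was 94.9, 95.8, 207 and 216 CPM in APOE3 and 199, 204, 240 and 287 CPM in APOE4, the lower pair again being animals 61 and F6. In males under nPM it was 189, 194, 222 and 235 CPM in APOE3 and 229, 239.9, 257 and 268 CPM in APOE4, with 1 APOE3 mouse above the lowest APOE4 mouse. *Kcnj16* was lower in APOE4, at -0.23 ± 0.067 (SE) on the log2 scale (-14.8%, adjusted p = 0.0397 in limma). In males under nPM it was 23.3, 23.9, 24.98 and 25.96 CPM in APOE3 and 20.8, 20.8, 21.6 and 21.7 CPM in APOE4, with no overlap. In females under filtered air *Kcnj16* was 28.2, 32.5, 35.3 and 37.6 CPM in APOE3 and 18.6, 19.7, 24.6 and 29.3 CPM in APOE4. In the 16 males alone the differences were +0.17 for *Kcnj10* and -0.14 for *Kcnj16* on the log2 scale (adjusted p = 0.175 and 0.178 in limma). Without the APOE3 females under filtered air they were +0.28 and -0.12 (adjusted p = 0.0495 and 0.357 in limma). Of the 7 astrocyte markers, *Aqp4* (-0.43), *S100b* (-0.36) and *Gja1* (-0.18) were lower in APOE4 (log2 differences, p under 0.005) and none was higher. The summed CPM of all 7 overlapped between the alleles in females under filtered air, 2926 to 4247 in APOE3 and 3180 to 4194 in APOE4. Their part in either channel was not tested.

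*Kcnip2*, the KChIP that speeds Kv4 current, was +0.41 ± 0.11 (SE) higher in APOE4 on the log2 scale (+32.5%, adjusted p = 0.0351 in limma). In females under filtered air it was 49.8, 52.04, 104 and 116 CPM in APOE3 and 124, 139.7, 145 and 147 CPM in APOE4, with no overlap. In males under filtered air it was 113 to 143 CPM and 100 to 153 CPM, overlapping widely. *Kcnk10*, the related leak channel TREK-2, was +0.25 ± 0.071 (SE) higher (+18.5%, adjusted p = 0.0397 in limma). In females under filtered air *Kcnk10* was 4.403, 4.49, 4.55 and 4.58 CPM in APOE3 and 6.904, 7.06, 7.06 and 7.204 CPM in APOE4, with no overlap. In nPM males the APOE4 range, 6.101 to 7.28 CPM, lay within that of APOE3, 5.56 to 7.61 CPM. Without the APOE3 females under filtered air *Kcnk10* differed by +0.13 (adjusted p = 0.411 in limma) and *Kcnip2* by +0.26 (adjusted p = 0.130 in limma) on the log2 scale.

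**Figure D3:**
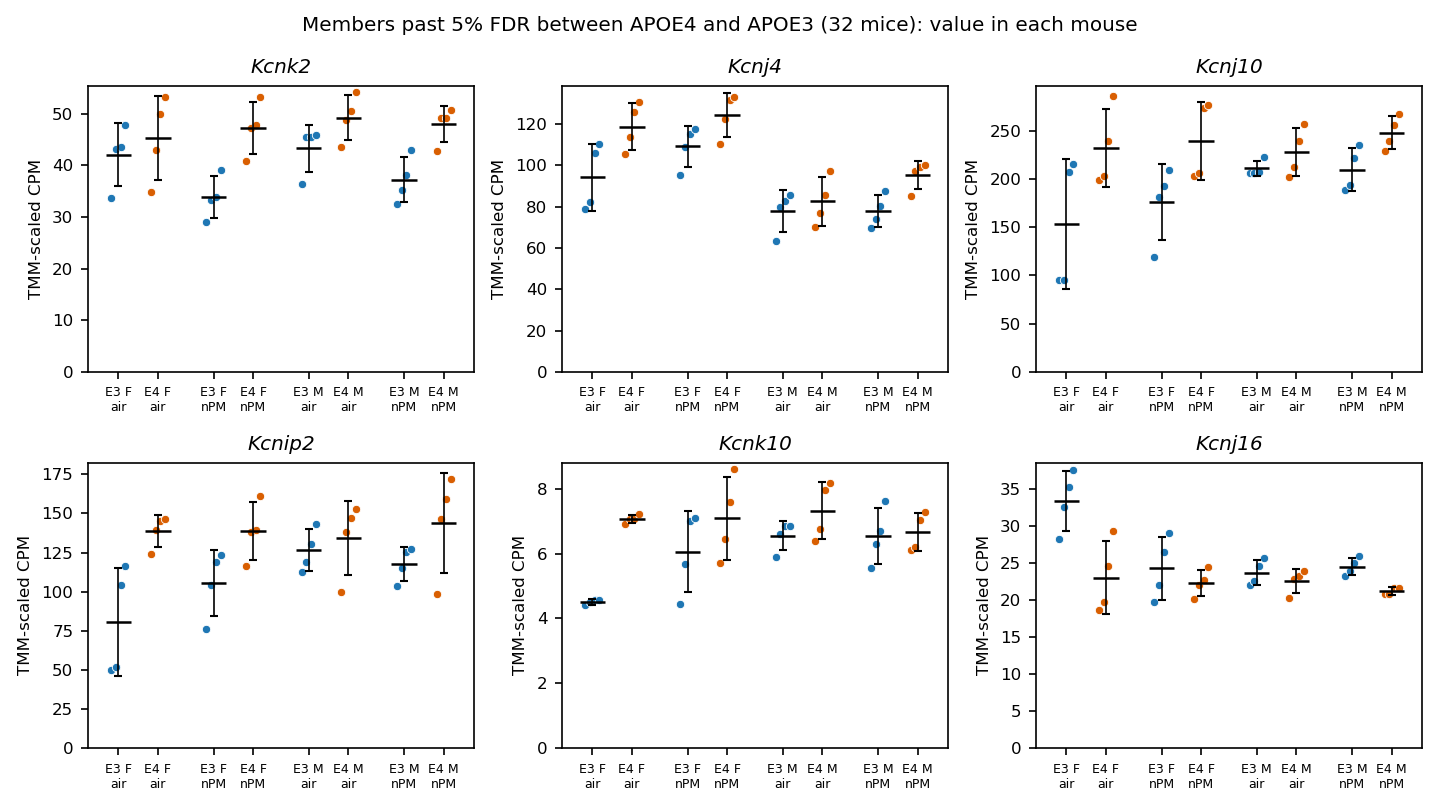
TMM-scaled CPM of the 6 members past 5% FDR between the alleles, in each of the 32 *APOE*-TR mice (points, APOE3 blue and APOE4 orange), with the mean and SD of 4 mice in black. E3 and E4 are the alleles, F and M the sexes, and air is filtered air. In *Kcnk10* the APOE3 females under filtered air lie at 4.403 to 4.58 CPM, and in *Kcnj10* 2 of them lie near 95 CPM.

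Within females under filtered air 10 of 84 members were called between the alleles, beside 5.86% of all genes, and 43 had an unadjusted p under 0.05, beside 41.1%. None passed 5% FDR, though 38 of the 16413 genes tested did, and the smallest adjusted p of a member was 0.0764 (limma). Leaving out 1 mouse gave from 5 called members (without animal F6, or without APOE4 animal 26 or 38) to 17 (without animal 52), and 16 without animal 63. Higher in APOE4 were the Kv1 subunits *Kcna1* and *Kcna2*, the Kv3 subunit *Kcnc1*, *Kcnj9*, *Kcnj11* and the leak channels *Kcnk10* and *Kcnk4*. Lower were *Kcne1l*, the BK beta subunit *Kcnmb4* and the transcript antisense to it, *Kcnmb4os2*. Reads of these last 2 overlapping genes cannot be told apart unless strand was used in counting, which the sources used here do not state. *Kcnc1* was 58.6, 58.7, 102 and 106 CPM in APOE3 and 141, 158, 173 and 174 CPM in APOE4 (+1.04 ± 0.22 (SE) log2, adjusted p = 0.0765 in limma). *Kcna1* was 107, 114, 154 and 157 CPM and 202, 218, 219.6 and 227 CPM in that order (+0.72 ± 0.14 (SE) log2, adjusted p = 0.0765 in limma). *Kcnmb4* went the other way, 52.8, 65.6, 69.6 and 74.5 CPM in APOE3 and 43.3, 44.9, 46.8 and 48.8 CPM in APOE4 (-0.50 ± 0.12 (SE) log2). In all 3 genes the alleles did not overlap. *Kcnh4* (+1.84) and *Kcnk9* (+1.71) had wider log2 differences than these, each with a p between 0.005 and 0.05. Without animals 61 and F6 *Kcnh4* had +0.65, *Kcnk9* +0.61, *Kcnc1* +0.63, *Kcna1* +0.48 and *Kcnmb4* -0.36 on the log2 scale. With the length slope as a covariate *Kcnh4* had +0.14 and *Kcnk9* +0.01, and neither was past p of 0.05. The slopes of these APOE3 and APOE4 mice did not overlap, so that fit cannot separate slope from allele. These 4 APOE3 mice are also the filtered-air group of the nPM comparison in APOE3 females, so a low value there enters both. *Kcnc1* had +0.76 for nPM in that comparison, *Kcna1* +0.45 and *Kcnmb4* -0.26 on the log2 scale.

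The size of the difference went with exon length. Among members with more than 3.90 kb of exon, the median member's length, the median difference in females under filtered air was +0.46 on the log2 scale, and among the shorter it was +0.15. All genes tested, split at the same length, had medians of +0.23 and -0.11. In males under filtered air the longer and shorter members had medians of -0.05 and 0.00. With the length slope as a covariate the median of all members in females under filtered air went from +0.34 to +0.02. In that fit 9 were called, 4 of them among the 10, beside 2.09% of all genes. The slopes there were -0.523 to -0.106 in APOE3 and -0.098 to +0.002 in APOE4, with no overlap. That fit therefore cannot separate slope from allele. Without animals 61 and F6 the median was +0.14 and 14 of 85 were called, beside 6.69% of all genes, of which 10 passed 5% FDR, beside 2.05%. The part of RNA quality in these differences was not tested.

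**Figure D4:**
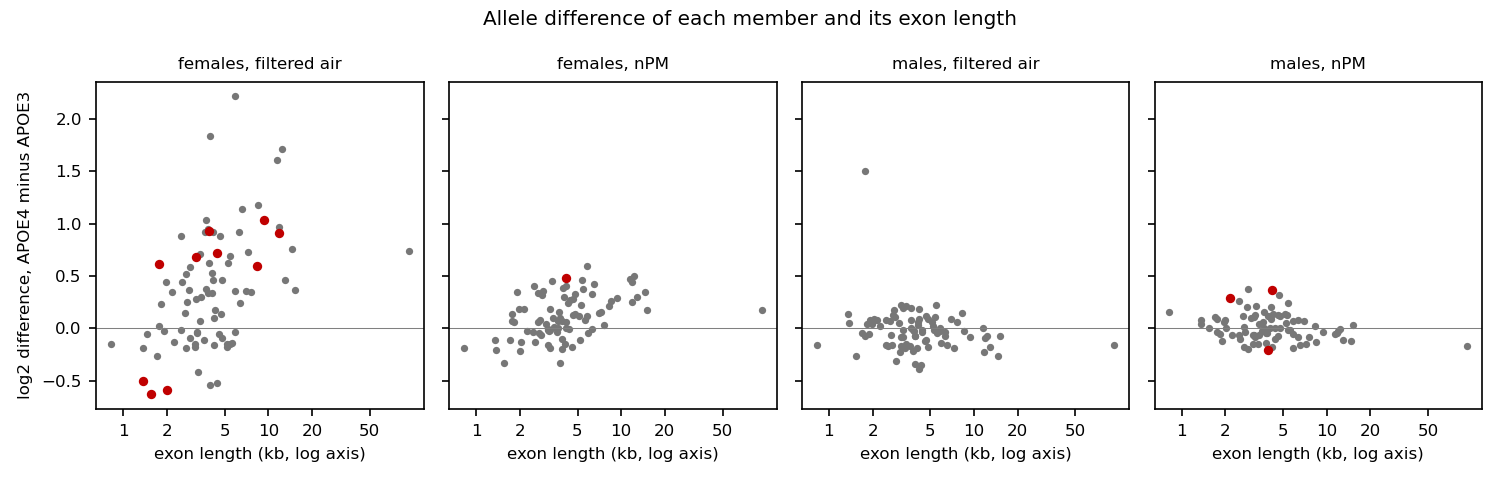
Log2 difference of each member between the alleles, APOE4 minus APOE3, against its exon length in kb on a log axis, in the 4 strata. Red points have an unadjusted limma p under 0.005. In females under filtered air *Kcnh4* lies at +1.84, and in males under nPM the members lie between -0.20 (*Kcnj16*) and +0.37 (*Kcna5*, not called).

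In females under nPM 1 of 85 members was called, *Kcnk2* (+0.48 ± 0.11 (SE) log2, +39.3%, adjusted p = 0.269 in limma), beside 1.15% of all genes. Leaving out 1 mouse gave 0 to 2. In males under nPM 3 of 85 were called, beside 1.95%: *Kcnk2* (+0.36 ± 0.082 (SE) log2, adjusted p = 0.123 in limma), *Kcnj4* (+0.29 ± 0.074 (SE)) and *Kcnj16* (-0.20 ± 0.051 (SE)). None of these passed 5% FDR. Without animal 58 of the APOE3 group 5 were called, and without animal 56 of it or animal 65 of the APOE4 group 1 was. In the same males 4 of 7 endothelial and 2 of 7 mural cell markers were lower in APOE4 at p under 0.005, with endothelial sums of 134 to 148 CPM in APOE3 and about 100 to 117 CPM in APOE4. Their part in the channel values was not tested. In males under filtered air none of 86 members was called in limma, beside 1.36%, and 1 was in edgeR. At an unadjusted p under 0.05 there were 9, beside 5.81%, with 4 higher and 5 lower in APOE4. Among the 5 lower were *Kcnh8* and *Kcnh1*, both of the EAG, ERG and ELK family. These APOE4 mice are also the filtered-air group of the nPM comparison in APOE4 males, so a low value there enters both.

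The nPM response was then compared between the sexes and between the alleles. Of 61 members none differed between females and males at p under 0.005 in limma, beside 1.97% of all genes, and 7 had p under 0.05, beside 13.6%, so the share of members was no larger than that of all genes. Without animal 52 of the APOE3 females under filtered air 4 members were called, and without animal 3 of the B6 males under filtered air 2 were. Of 83 members 1 differed between the alleles, *Kcnn2*, an SK channel of the afterhyperpolarization, beside 0.726% of all genes. In APOE3 females *Kcnn2* was 13.1, 13.2, 14.2 and 16.2 CPM under filtered air and 18.02, 18.4, 18.6 and 18.9 CPM with nPM. In APOE3 males it was 15.99, 17.1, 17.6 and 18.3 CPM and 17.3, 18.6, 19.6 and 19.8 CPM, and in APOE4 males 18.9, 18.97, 19.3 and 22.1 CPM and 17.2, 18.01, 18.99 and 20.98 CPM. In APOE4 females it was 17.2 to 19.7 CPM and 16.04 to 19.8 CPM. It was thus higher with nPM in APOE3 females with no overlap, and the other groups overlapped. The response of APOE4 minus that of APOE3 was -0.28 ± 0.078 (SE) on the log2 scale (adjusted p = 0.443 in limma). Without the APOE3 females it was -0.15 and not called.

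Of 25 partners of the channels and genes of potassium transport, 23 were tested between the alleles in the 32 mice. *Ank3*, the ankyrin that anchors KCNQ channels at the axon initial segment, was higher in APOE4 by +0.24 on the log2 scale (adjusted p = 0.0386 in limma), as was *Slc12a5*, the neuronal potassium-chloride cotransporter, by +0.38 (adjusted p = 0.0569 in limma). None was lower at p under 0.005. In females under filtered air *Ank3* (+0.64), *Abcc8* (+1.68), *Adam22* (+0.63) and *Slc12a5* (+1.09) were higher at that level on the log2 scale (adjusted p = 0.0765 for each in limma). Without animals 61 and F6 they had +0.46, +0.91, +0.36 and +0.53 in that order, and *Adam22* was no longer called. In the 32 mice without all 4 APOE3 females under filtered air *Ank3* had +0.12 and *Slc12a5* +0.15 (adjusted p = 0.326 and 0.298 in limma), and in the 16 males alone +0.03 and +0.06 (adjusted p = 0.898 and 0.499 in limma). In males under nPM *Abcc9* was the 1 called partner and was lower. It had -0.30 in the 16 males alone and +0.23 in the 16 females alone (adjusted p = 0.0111 and 0.191 in limma). In the 32 mice *Abcc9* had -0.20 with the length slope as a covariate (adjusted p = 0.0456 in limma). Without all 4 APOE3 females under filtered air it had -0.14 (adjusted p = 0.423 in limma). In the males under nPM some endothelial and mural cell markers were also lower in APOE4, as given above. Their part in the *Abcc9* value was not tested. No partner was called for nPM in any stratum or in the 48 mice in limma.

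*Kcne2*, chosen after its values were seen, encodes an auxiliary subunit abundant in choroid plexus. Above 2 CPM it was found in 7 of 32 *APOE*-TR mice, at 2.02 to 12.8 CPM, and in the other 25 it was 0.196 to 1.15 CPM. The 7 choroid plexus markers summed to 348 to 1396 CPM in those 7 mice and to 9.57 to 110.5 CPM in the other 25. Of the 7 mice 5 were APOE4, in both sexes and both exposures, and the others were APOE3 female F6 under filtered air and an APOE3 male with nPM. *Kcne2* had the largest difference between the alleles in males under filtered air, +1.51 ± 0.47 (SE) on the log2 scale (adjusted p = 0.452 in limma). There it was 0.196, 0.237, 0.268 and 0.388 CPM in APOE3 and 0.399, 0.703, 3.66 and 4.56 CPM in APOE4, and all 7 choroid plexus markers were higher in APOE4 at p under 0.05. The marker sums were 16.8 to 48.2 CPM in APOE3 and 32.1 to 842 CPM in APOE4. The part of choroid plexus tissue in the *Kcne2* value was not tested.

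Some members had levels far apart in the B6 and *APOE*-TR tables, and their rows cover different stretches of the genome. In 12 of 88 members the median was higher in B6. The 3′ end of the row stopped over 5 kb earlier in the *APOE*-TR table in 7 members, of which 5 code for protein: *Kcnq3*, *Kcnh7*, *Kcnk9*, *Kcnma1* and *Kcnb2*. All 5 were higher in B6. *Kcnq3*, a subunit of the M channel, ended 8.53 kb earlier in the *APOE*-TR table and had a median of 112.6 CPM in B6 and 16.03 CPM in *APOE*-TR mice. *Kcnma1*, the BK pore, ended 9.26 kb earlier and had 169.9 and 49.2 CPM. *Kcna1* ended 3.93 kb later in the *APOE*-TR table and had 33.3 CPM in B6 and 221.5 CPM in *APOE*-TR mice. The levels per kb given above use 1 exon length for both tables, so that of *Kcnq3* in *APOE*-TR mice is divided by exon that its row may not count, and the same holds for the 6 others. The antisense *Kcnq1ot1* and *Kcnd3os* also ended over 5 kb earlier and were lower in B6. Genotype, exposure and table cannot be told apart here.

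**Figure D5:**
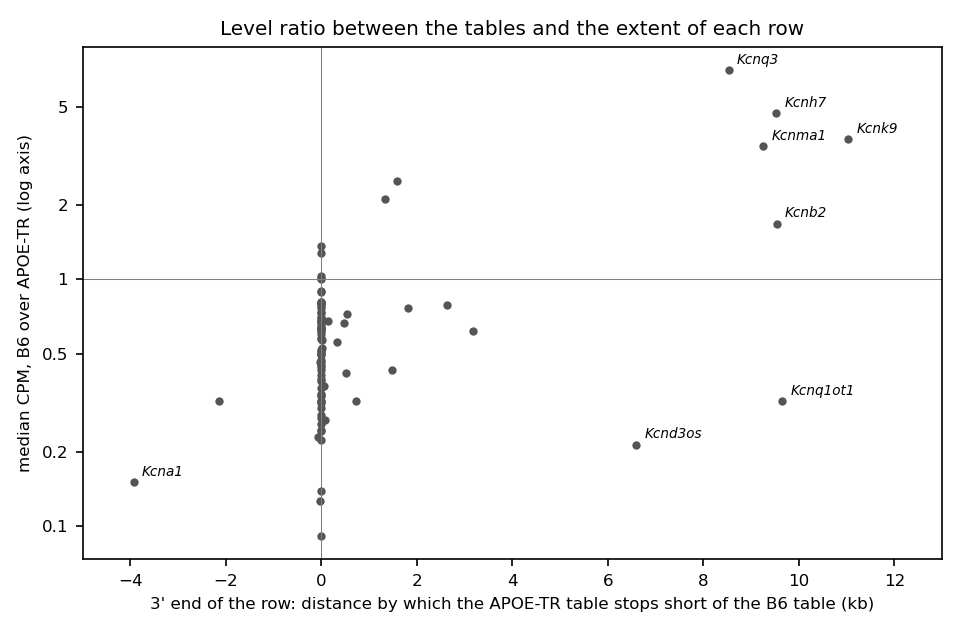
Ratio of the median CPM of each member in 16 B6 mice to that in 32 *APOE*-TR mice, on a log axis, against the distance in kb by which its row in the *APOE*-TR table stops short of the B6 row at the 3′ end. *Kcnq3* lies at 8.53 kb and a ratio of 7.02, and *Kcna1* at -3.93 kb and 0.150; other names mark members given in the text.

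The letters of a pair of motifs were searched in the 250 bases before each annotated start, on both strands, since the study follows the factors NRF2 and NFKB, which bind such elements. RefSeq windows on GRCm38.p6 were held for 64 of the 88 members, 89 windows in all. The core of the antioxidant response element, TGACNNNGC, was found in 17.98% of the members' windows and in 10.2% of all 32851 windows. An NFKB-like motif, GGG with any 2 bases, TT, any base and CC, was found in 2.25% and in 4.11%. Neither motif contains the other. The windows shown are those with a match among the members called in all 48 or all 32 mice, with the matches in capitals, each on the strand of its gene. *Kcnj16*, lower in APOE4, had a pair of matches to the first motif in the third of its 4 windows (chr11:111019335-111019584, plus strand). *Kcnip3*, called for nPM, had 1 to the second motif in the first of its 3 windows (chr2:127522095-127522344, minus strand), as had *Kcnk10*, higher in APOE4, in the first of 2 (chr12:98578214-98578463, minus strand). A match describes letters and is no evidence of binding.
Kcnj16: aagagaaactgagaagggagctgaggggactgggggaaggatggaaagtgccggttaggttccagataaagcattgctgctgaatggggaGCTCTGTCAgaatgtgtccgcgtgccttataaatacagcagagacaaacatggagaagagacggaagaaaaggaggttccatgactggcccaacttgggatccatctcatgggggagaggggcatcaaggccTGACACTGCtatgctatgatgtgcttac
Kcnip3: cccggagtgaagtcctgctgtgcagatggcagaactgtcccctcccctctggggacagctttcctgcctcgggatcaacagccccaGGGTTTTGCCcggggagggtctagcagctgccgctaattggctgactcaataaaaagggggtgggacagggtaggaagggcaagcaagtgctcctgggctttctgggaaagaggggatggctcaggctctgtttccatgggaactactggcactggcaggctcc
Kcnk10: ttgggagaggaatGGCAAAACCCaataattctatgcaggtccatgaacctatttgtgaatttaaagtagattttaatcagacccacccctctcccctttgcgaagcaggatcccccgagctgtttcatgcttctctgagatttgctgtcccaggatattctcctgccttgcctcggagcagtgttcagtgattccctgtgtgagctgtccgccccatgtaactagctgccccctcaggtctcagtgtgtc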

How the data were processed

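Cortex RNA of 48 mice (12 groups of 4) was sequenced from stranded mRNA libraries. Per the labels and methods, the authors aligned reads with TopHat2 2.0.8b to mm10 (GRCm38), keeping uniquely mapping reads, and quantified RefSeq genes in Partek Flow. The deposited values are CPM, in 1 table for B6 and 1 for *APOE*-TR mice, and how they were scaled and whether strand was used in counting are not given in the sources used here. Column minimums stand for genes without reads. A column named E3 F6 ctrl matched its group but no single sample label and was used as a replicate of that group.

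Values were scaled by TMM (edgeR 4.0.16) within each table and tested as log2(CPM + 0.5) with limma 3.58.1 (R 4.3.3, lmFit and eBayes with trend), so fold changes of low genes are understated. A gene entered a fit where each mouse had over 1.01 times its column minimum, with Benjamini-Hochberg adjustment over all genes tested. Strata compared 4 with 4 mice, and the fits of 48 and 32 mice had sex, genotype and exposure as terms. The labels name separate animals. In *APOE*-TR columns 96.2% to 97.1% of low values were whole multiples of the minimum, within 0.1 of a step, and edgeR's quasi-likelihood test was run on those reads as an alternative. It called from 26 to 1326 genes per comparison at p under 0.005. In B6 columns the share was 87.7% to 98.4%, so no count test was run there or on all 48 mice. Exon lengths are from GENCODE M21. Fits were tested on simulated data.

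Members and gene lists were chosen with earlier results of these data known. Genes named were the members called in each comparison, a list of 28 anchors, called partners, and marker genes of a list that moved. A few members and partners are not reported here by name. Other members were named where a count was small or after their values were seen. Alternatives were a pseudocount of 2, no TMM, no filter, voom, a length-slope covariate, variance shared across groups, and leaving out mice. Those without animals 61 and F6, or within 1 sex, were chosen after seeing the data.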

Additional observations from a re-analysis of the deposited data

Results flagged for a closer look

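In 128 groups of 4 mice of the members called in the report, 5 held a mouse far from the other 3 by Dixon's test. Chance gives about 1 in 20. The highest *Kcnh3* of APOE3 males with nPM was 80.87 CPM in animal 76, and the others had 66.2 to 68.4 CPM. Animal 76 also had a choroid plexus marker sum of 1048 CPM, and a link to its *Kcnh3* value was not tested. *Kcnj11* was 40.49 CPM in animal 51 of the B6 females with nPM against 25.1 to 27.2 CPM. In APOE3 males under filtered air *Kcnj10* was 223.4 CPM in animal 63 against 207 to 208 CPM, and *Kcnk2* was 36.46 CPM in animal 55 against 45.4 to 45.9 CPM. *Kcnn2* was 22.07 CPM in animal 32 of the APOE4 males under filtered air against 18.9 to 19.3 CPM.

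The response of *Kcnn2* to nPM differed between the alleles by -0.2808 on the log2 scale, APOE4 minus APOE3, in a direct test of the difference (adjusted p = 0.443 in limma). It failed the correction over all genes.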

How the results depend on the processing

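No called member changed direction in any alternative, but the gene was not called in 160 of 584 fits that left out 1 mouse or in 62 of 233 other fits. In the 32 mice *Kcnk2* stayed past 5% FDR in 41 of 42 alternatives, *Kcnj4* in 39, *Kcnj10* in 35, *Kcnip2* in 30, *Kcnj16* in 23 and *Kcnk10* in 22. The cause of the changes below was not tested. These counts, and the leave-one-out counts above, are given without the share of all genes called in the same fit. They describe how stable a count was, and not the channels beside other genes.

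For nPM in B6 females (1 called member) the count was 0 with no TMM, with no filter, with voom and with the length covariate, and 4 with shared variance. Shared variance gave 5 in B6 males and 15 in APOE3 females (0 each as reported), 0 in APOE4 females and males (1 each), 38 for the alleles in females under filtered air (10) and 0 in males under nPM (3). The length covariate gave 0 in APOE4 females, 2 in APOE4 males, 0 for the alleles in males under nPM and 3 in the 32 mice (7). edgeR gave 0 in APOE4 females, and 1 for the alleles in males under filtered air (0), where no filter also gave 1. For nPM in all mice (4) no TMM and voom gave 2, and leaving out all 4 or only 2 of the APOE3 females under filtered air gave 1. For the alleles in the 32 mice those 2 settings gave 3 and 4, males alone 4 and females alone 11. The sex difference of the response (0) was 1 with voom and 1 without APOE3 females, and the allele difference (1) was 0 without APOE3 females.

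Leaving out 1 mouse gave 0 to 5 called members in B6 females, 0 to 3 in B6 males, 0 to 3 in APOE3 females, 0 in APOE3 males, and 0 to 3 in both APOE4 strata. For the alleles it gave 5 to 17 in females under filtered air, 0 to 2 in females under nPM, 0 to 1 in males under filtered air, 1 to 5 in males under nPM and 6 to 10 in the 32 mice. It gave 0 to 4 for nPM in all mice, where 24 of 48 single mice moved the count by over 1.5 times, 0 to 4 for the sex difference and 1 to 4 for the allele difference. With nPM in B6 females the 5 came without animal 51 and 4 without animal 50, and in APOE3 females the 3 came without animal 52. No paired analysis was possible because animal numbers do not pair mice across groups. Depth limits the lowest members, most in the B6 library of 2.05 M reads.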

Other observations

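For each of the 6 members past 5% FDR between the alleles in the 32 mice, the genes whose rows start within 2 Mb were counted, a window chosen after seeing the data. Near *Kcnk2* 5 of 15 tested genes also passed, beside 5.95% of all genes, near *Kcnj10* 12 of 59, near *Kcnip2* 9 of 65 and near *Kcnk10* 3 of 17. Near *Kcnj16* 1 of 19 did and near *Kcnj4* 3 of 85. Of the 12 near *Kcnj10* 10 were lower in APOE4, opposite to *Kcnj10*, and of the 5 near *Kcnk2* 4 were higher. Neighbours of a gene are not independent of it, and what the counts go with was not tested.

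Of the 7 interneuron markers *Lhx6* was higher in APOE4 in the 32 mice by +0.31 on the log2 scale (adjusted p = 0.0437 in limma) and *Slc32a1*, the vesicular GABA transporter, by +0.36 (adjusted p = 0.0466 in limma). Of mural cell markers *Rgs5* (-0.37) and *Acta2* (-0.43) were lower in APOE4 on the same scale. Of neuron markers *Eno2* (+0.18) and *Rbfox3* (+0.19) were higher. Of all genes, 5.95% passed 5% FDR in that fit. The other markers of these 3 lists are not given here. The fit includes the APOE3 females under filtered air, and the markers are not given without them. No change in a cell type is read from these few genes. Among the 48 mice the mural marker *Cspg4* was higher with nPM by +0.37 on the log2 scale (adjusted p = 0.301 in limma).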
